A study of Mus musculus with 6 samples.

Results

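The 34 genes described here carry out glycolysis, move glucose and lactate across the cell membrane, take pyruvate into the mitochondrion, or belong to the response to low oxygen. They were chosen by gene symbol from the deposited expression table, and all 34 were found among its 47205 rows. They comprised 4 transporters, 8 genes of upper glycolysis, 6 genes of lower glycolysis, 2 lactate dehydrogenase genes, 6 genes of mitochondrial pyruvate use, 4 genes of oxygen sensing and 4 targets of the hypoxia response.

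RNA was sequenced from mouse ovaries at 9 days post partum (dpp). The cKO group held 3 libraries from ovaries in which Srsf1, a serine/arginine-rich splicing factor, was deleted in granulosa cells, and the WT group held 3 libraries from wild-type ovaries of the same age. The comparison asks how this deletion alters expression in the ovary. The Cre driver, the strain and the number of animals behind each library were not stated in the sources used, and nothing says that replicates came from separate animals, so p-values measure the spread between these samples, which may be technical. Levels are FPKM (fragments per kilobase, scaled for library depth), as the authors deposited them, so they are per length of the gene model in their table.

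Srsf1 itself had 20.3, 26.9 and 21.4 FPKM in the cKO libraries, against 39.9, 49.6 and 46.3 FPKM in the WT libraries. All 3 cKO libraries lay below all 3 WT libraries, which goes with the labels. Its mean was 22.9 ± 3.52 FPKM in cKO and 45.3 ± 4.96 FPKM in WT (SD, n = 3 each), and log2 expression differed by -0.96 (SE 0.134), with a limma p of 0.000185 before adjustment and 0.32 after it. The deletion is in granulosa cells, and other ovarian cells still carry the gene.

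The libraries held 18.6 to 18.7 M recovered reads in cKO and 16.8 to 18.5 M in WT. The summed level of 12 granulosa cell markers was 813 to 893 FPKM in cKO libraries and 923 to 996 FPKM in WT libraries, with 8 of 11 tested markers lower on average in cKO. For 10 leukocyte markers it was 72.7 to 182 FPKM in cKO and 33.5 to 50.6 FPKM in WT, with 10 of 10 markers higher on average in cKO. For 8 surface epithelium markers it was 246 to 343 FPKM in cKO and 167 to 223 FPKM in WT, with 8 of 8 higher, and for 8 endothelial markers 170.1 to 175 FPKM in cKO and 149 to 156 FPKM in WT, with 8 of 8 higher. For 12 oocyte markers the range was 2337 to 2664 FPKM in cKO and 2520.0 to 2619 FPKM in WT. Erythroid markers summed to 157 to 572 FPKM in cKO and 182 to 333 FPKM in WT, stromal markers to 2244 to 2935 FPKM in cKO and 1950.4 to 2857 FPKM in WT, and muscle markers to 62.7 to 167 FPKM in cKO and 98.7 to 164 FPKM in WT, so that these 3 lists overlapped between the groups. No marker of these lists was listed at 0 in all libraries, and no marker passed the test. The part of cell composition in the values below was not tested, and in whole ovaries fewer cells of a type and less RNA per cell cannot be told apart.

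Glycolysis splits glucose into pyruvate in the cytosol, and lactate dehydrogenase converts pyruvate to lactate and back. In the ovary, granulosa cells take up glucose and pass pyruvate on to the oocyte, which uses glucose poorly itself. When oxygen is scarce, the prolyl hydroxylases no longer mark the hypoxia-inducible factors for degradation, and the factors bind short motifs near target genes, many of them glycolytic. The core of these motifs reads ACGTG, and less often it starts with G and reads GCGTG.

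Of the 34 genes, 31 matched a RefSeq promoter table (GRCm38.p6), and Epas1, Slc2a3 and Ndrg1 did not. In the 250 bases before a start site, ACGTG stood on either strand in 17 of 31 genes (54.8%), against 24.8% of 10620 genes tested here that matched and 18.5% of all 27025 genes in the table. GCGTG stood in 20 of 31 (64.5%), against 49.1% of the matched genes tested and 30.9% of all. Counted per promoter, since a gene can have several, ACGTG was in 43.2% of 44 promoters of these genes, in 21.3% of those of genes tested and in 16.6% of all. The median GC content was 62.8% for promoters of these genes, 59.6% for those of genes tested and 52.4% for all. A match is a description of the letters in this window and shows no binding. The motifs can share a base with each other, and CACGTG holds ACGTG on both strands and counts on each.

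The promoters shown belong to the 3 matched genes whose cKO and WT levels did not overlap and to the 2 lactate dehydrogenase genes, whose levels are compared further on. They are RefSeq sequence of GRCm38.p6, read 5′ to 3′ along the gene's own strand, each ending at the base before the start site, with both motifs in capitals on whichever strand they stand.
Gpi1 (chr7:34230337-34230586, minus strand): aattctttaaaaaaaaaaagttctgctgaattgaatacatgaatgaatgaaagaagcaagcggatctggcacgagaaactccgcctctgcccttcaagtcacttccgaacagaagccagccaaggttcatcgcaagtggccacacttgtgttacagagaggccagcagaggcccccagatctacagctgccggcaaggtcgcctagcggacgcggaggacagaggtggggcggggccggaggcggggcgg
Pgk1 (chrX:106186850-106187099, plus strand): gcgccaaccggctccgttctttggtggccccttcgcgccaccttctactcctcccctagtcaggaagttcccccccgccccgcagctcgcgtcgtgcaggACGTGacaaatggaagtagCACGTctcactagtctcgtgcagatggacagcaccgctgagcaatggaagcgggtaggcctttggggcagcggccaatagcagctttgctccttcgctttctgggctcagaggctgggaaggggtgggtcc
Egln3 (chr12:54203875-54204124, minus strand): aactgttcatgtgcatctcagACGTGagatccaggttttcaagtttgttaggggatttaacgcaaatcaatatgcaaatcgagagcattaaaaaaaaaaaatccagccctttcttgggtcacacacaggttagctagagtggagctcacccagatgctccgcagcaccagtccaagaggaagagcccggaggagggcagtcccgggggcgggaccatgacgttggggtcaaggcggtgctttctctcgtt
Ldha (chr7:46845554-46845803, plus strand): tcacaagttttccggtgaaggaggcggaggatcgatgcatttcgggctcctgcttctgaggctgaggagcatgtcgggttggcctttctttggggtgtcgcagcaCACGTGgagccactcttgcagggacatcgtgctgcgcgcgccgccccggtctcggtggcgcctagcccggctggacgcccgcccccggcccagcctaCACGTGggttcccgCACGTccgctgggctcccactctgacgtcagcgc
Ldhb (chr6:142507958-142508207, minus strand): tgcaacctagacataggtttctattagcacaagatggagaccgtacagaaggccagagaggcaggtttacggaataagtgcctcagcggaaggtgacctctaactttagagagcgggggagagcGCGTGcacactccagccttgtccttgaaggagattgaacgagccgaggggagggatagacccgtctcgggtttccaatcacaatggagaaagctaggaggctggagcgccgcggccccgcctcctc
The Gpi1 window held neither motif. The Pgk1 window held ACGTG 2 times and the Egln3 window 1 time. The window before the first Ldha start site held ACGTG 5 times, counting both strands of its CACGTG letters. That of Ldhb held no ACGTG and GCGTG 1 time, and so did the window before another Ldha start site, which is not shown.

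None of the genes passed the test between cKO and WT ovaries. Of the 34, 33 reached the filter of a mean of 1 FPKM, and 0 of 33 were called by limma at an adjusted p under 0.05, against 3 of all 14714 genes tested (0.0204%; 0.0068% higher and 0.0136% lower in cKO). A total of 1 of the 33 had an unadjusted p under 0.05, where 6.34% of all genes tested did (3.64% higher and 2.7% lower in cKO). The smallest adjusted p among them was 0.773. By limma-voom on the recovered reads 0 of the 33 were called as well. Fold changes on the log2(FPKM + 1) scale, which understates the change of low genes, ran from -0.20 for Pfkl to 0.37 for Gapdh.

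The median log2 fold change of the 33 genes was 0.03, against -0.00 for all genes tested. On that scale 19 were higher and 14 lower in cKO, but 13 were higher and 20 lower once libraries were scaled to equal totals, and 15 higher and 18 lower after quantile normalization. The median absolute log2 fold change was 0.0767 for these genes and 0.113 for all tested. For 26 of 33, the 95% limma interval on the log2(FPKM + 1) scale lay inside 1.5-fold in both directions, as it did for 72.4% of all genes tested. The intervals of Slc2a1, Slc16a3, Hk2, Pfkl, Gapdh, Mpc1 and Ndrg1 reached beyond 1.5-fold, so a difference of that size lay within their error. The scale understates low genes, so for them the count does not exclude a 1.5-fold difference in FPKM. At a pseudocount of 0.1 the fold changes of Slc2a3 and Egln3 were both 0.32, against 0.23 and 0.27 here.

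In the deposited table, whose positions are those of GRCm39, Gpi1 spans chr7:33900752-33929761, Egln3 chr12:54225767-54250660 and Pgk1 chrX:105230706-105247305. Epas1 spans chr17:87061292-87140838, Ldha chr7:46491698-46505051, Ldhb chr6:142435975-142453683 and Gapdh chr6:125138815-125143430. In 4 of the 33 (12.1%) the cKO and WT libraries did not overlap, against 12.3% of all genes tested, which is a share near the background. Egln3 and Gpi1 were higher in all cKO libraries than in any WT library (6.37% of all genes tested), and Epas1 and Pgk1 were lower (5.89%). With libraries scaled to equal totals, 2 of the 33 (6.06%) did not overlap, against 12.8% of all genes tested (3.96% higher and 8.88% lower in cKO). Egln3 was still apart at that scaling, but the groups overlapped for Gpi1, Epas1 and Pgk1. The other gene apart was Pdhb, lower in cKO, whose groups overlapped in the deposited values. The coefficient of variation was larger in cKO than in WT for 20 of the 33 genes (60.6%), against 58.8% of all genes tested.

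**Figure D1:**
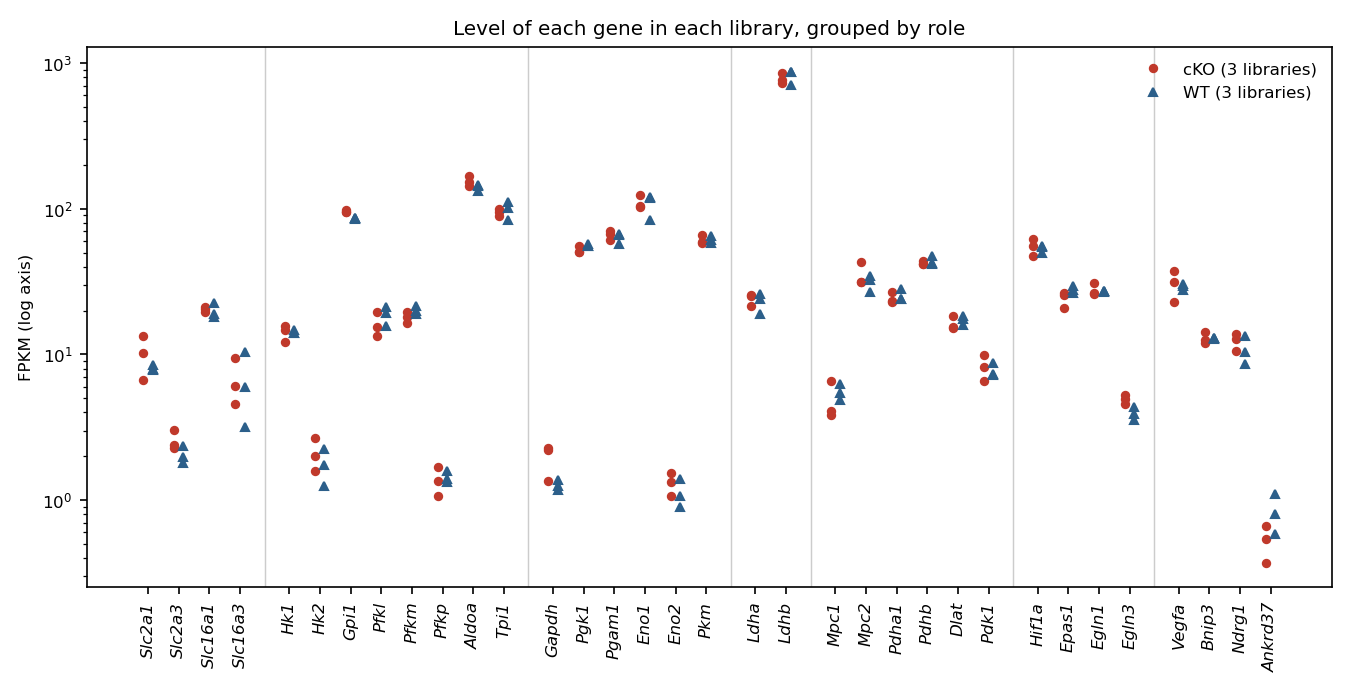
Level of each of the 34 genes in FPKM (log axis) in 3 cKO libraries (circles) and 3 WT libraries (triangles), with grey lines between the roles. Ldhb stands at 710.0 to 873 FPKM, far above the other genes, and Ankrd37 lies lowest.

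**Figure D2:**
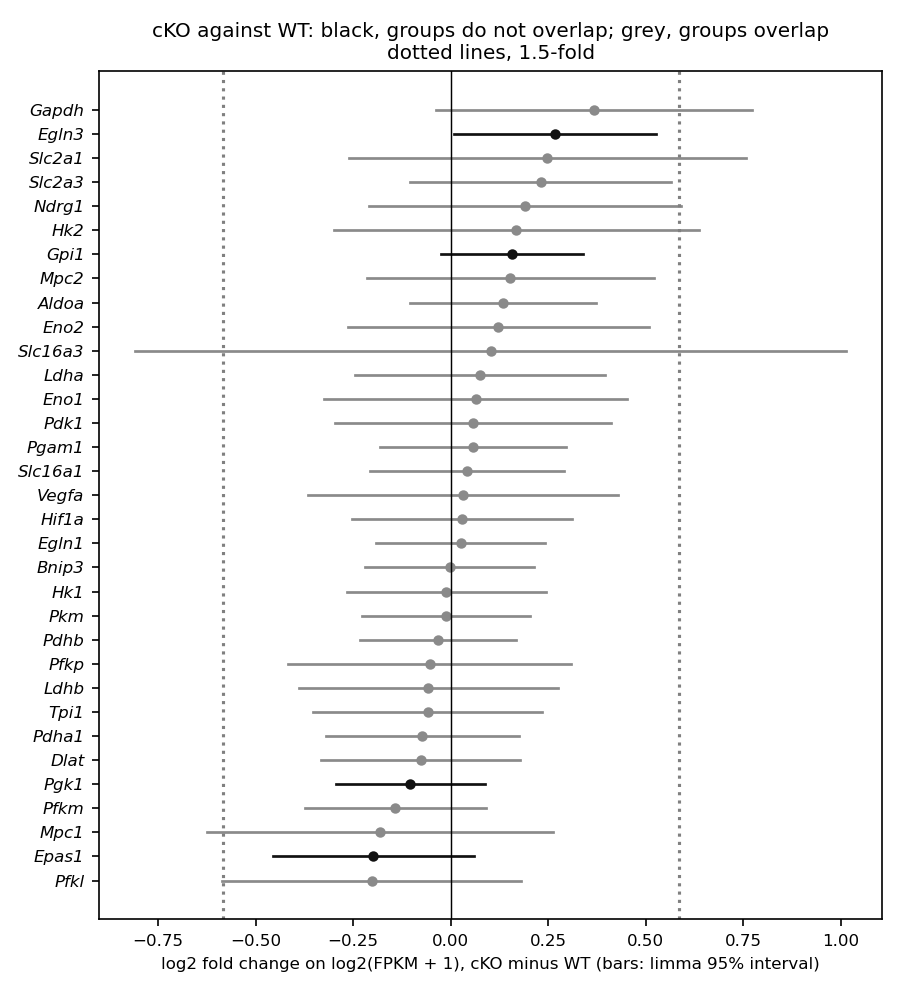
Log2 fold change of the 33 genes tested, cKO minus WT, on the log2(FPKM + 1) scale (points) with limma 95% intervals (bars). Dotted lines mark 1.5-fold, and black marks the 4 genes whose groups do not overlap; the interval of Slc16a3 is the widest and that of Gpi1 the narrowest.

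Both glucose transporters had low to moderate levels. Slc2a1, which encodes GLUT1, the transporter for basal glucose uptake, had 10.2, 13.5 and 6.73 FPKM in the cKO libraries, against 8.51, 7.81 and 7.91 FPKM in the WT libraries. Library cKO 2 was highest and cKO 3 lowest, and the WT libraries lay close together between cKO 3 and cKO 1. On the log2 scale the difference was 0.25 (SE 0.215), with a limma adjusted p of 0.855. It was 0.03 without cKO 2 and 0.49 without cKO 3.

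Slc2a3, which encodes the high-affinity transporter GLUT3, had 3.04, 2.29 and 2.39 FPKM in the cKO libraries, against 2.35, 1.80 and 1.98 FPKM in the WT libraries. Only WT 1 reached into the cKO range, and the fold change was 0.23 (SE 0.141; limma adjusted p = 0.811). Slc2a1 made up 78.8% ± 6.03 in cKO and 79.9% ± 1.45 in WT (SD, n = 3 each) of the summed FPKM of both genes.

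Of the monocarboxylate transporters, Slc16a1 (MCT1), which carries lactate and pyruvate in both directions, was the most abundant transporter, with 20.5, 19.6 and 21.1 FPKM in the cKO libraries, against 19.0, 18.0 and 22.7 FPKM in the WT libraries. The groups overlapped, and the fold change was 0.04 (SE 0.105; limma adjusted p = 0.946). Slc16a3 (MCT4), the exporter of lactate from glycolytic cells, had 9.39, 4.55 and 6.07 FPKM in the cKO libraries, against 10.4, 5.93 and 3.15 FPKM in the WT libraries. It varied more between libraries of a group than any other of the 34 genes in both groups, with coefficients of variation of 37.1% in cKO and 56.6% in WT, and was highest in replicate 1 of each. Its fold change of 0.10 had an SE of 0.386 (limma adjusted p = 0.969), and leaving out WT 3 gave -0.27. Slc16a3 and Csnk1d overlap in their spans in the deposited table, by an extent that was not measured. Their exons were not compared and the strandedness of the counts is not given, so it is not known whether they share reads. Such an overlap was present for 14 of the 34 genes. The others were Slc2a1, Slc2a3, Hk1, Pfkm, Pfkp, Tpi1, Pkm, Ldha, Mpc1, Pdha1, Hif1a, Egln1 and Ankrd37. All 4 transporters had positive fold changes, with a median of 0.17, except that Slc16a1 was at -0.02 with libraries scaled to equal totals.

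**Figure D3:**
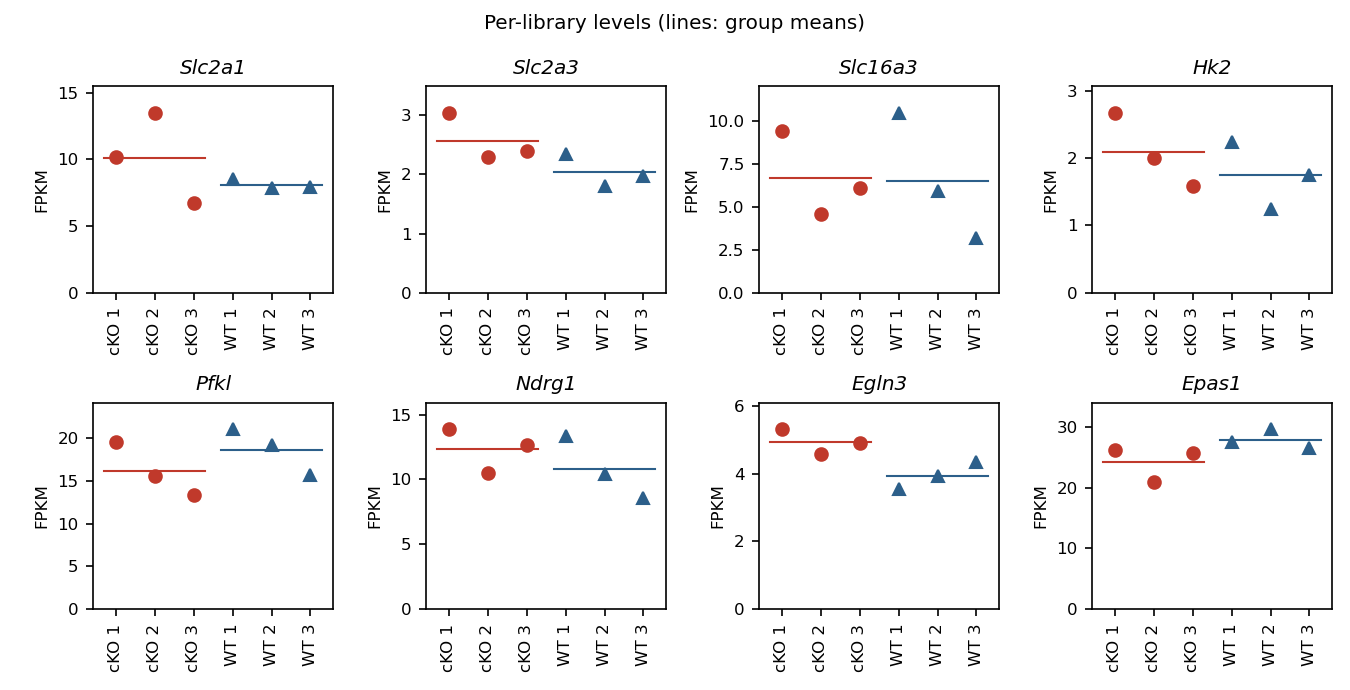
FPKM of 8 genes in each cKO library (circles) and each WT library (triangles), with lines at the group means and axes from 0. Slc2a1 spans 6.73 to 13.5 FPKM in cKO and 7.81 to 8.51 FPKM in WT, and Slc16a3, Hk2, Pfkl and Ndrg1 are highest in replicate 1 of both groups.

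In upper glycolysis, which spends ATP to split glucose into triose phosphates, 3 of 8 genes had positive and 5 negative fold changes, with a median of -0.03. Gpi1, the isomerase that turns glucose 6-phosphate into fructose 6-phosphate, had 98.4, 94.4 and 94.9 FPKM in the cKO libraries, against 87.0, 84.6 and 86.4 FPKM in the WT libraries. The groups did not overlap, and the mean was 95.9 ± 2.20 FPKM in cKO and 86.0 ± 1.24 FPKM in WT (SD, n = 3 each), 11.6% higher in cKO. The fold change of 0.16 had the smallest SE of the genes described (0.0770), with a limma p of 0.0826 before adjustment and 0.791 after it.

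Aldoa, the aldolase that cleaves fructose bisphosphate, was the most abundant gene of upper glycolysis, with 152, 168 and 142 FPKM in the cKO libraries, against 142, 132 and 146 FPKM in the WT libraries. Library cKO 2 was highest and WT 2 lowest, and the groups overlapped. Log2 levels differed by 0.13 (SE 0.101; limma adjusted p = 0.834).

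Hexokinase traps glucose as glucose 6-phosphate. Hk1 averaged 14.2 ± 1.78 FPKM in cKO and 14.3 ± 0.429 FPKM in WT (SD, n = 3 each), and Hk2, the inducible isozyme, averaged 2.08 ± 0.549 FPKM in cKO and 1.75 ± 0.499 FPKM in WT (SD, n = 3 each). Hk1 held 87.3% ± 1.68 in cKO and 89.1% ± 2.89 in WT (SD, n = 3 each) of their sum, and their fold changes were -0.01 (SE 0.108) and 0.17 (SE 0.198).

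Phosphofructokinase catalyses the committed step of glycolysis. The liver-type subunit Pfkl had 19.6, 15.5 and 13.4 FPKM in the cKO libraries, against 21.03, 19.2 and 15.7 FPKM in the WT libraries. Each WT library was above the same-ranked cKO library, but the groups overlapped, and the fold change was -0.20 (SE 0.162; limma adjusted p = 0.845). The muscle-type subunit Pfkm averaged 18.0 ± 1.62 FPKM in cKO and 19.96 ± 1.28 FPKM in WT (SD, n = 3 each), with a fold change of -0.14 (SE 0.0982; limma adjusted p = 0.830), and the platelet-type subunit Pfkp averaged 1.36 ± 0.311 FPKM in cKO and 1.44 ± 0.124 FPKM in WT (SD, n = 3 each). Tpi1, which interconverts the triose phosphates, averaged 94.1 ± 5.16 FPKM in cKO and 98.7 ± 14.2 FPKM in WT (SD, n = 3 each).

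Lower glycolysis yields ATP and pyruvate. Here 4 of 6 genes had positive fold changes, with a median of 0.06, but Pgam1 was at -0.01 and Eno1 at -0.00 with libraries scaled to equal totals, both were at -0.01 after quantile normalization, and Gapdh was at -0.09 once the reads of its copies were added. Eno1, the enolase that makes phosphoenolpyruvate, had the highest FPKM of the group, with 105, 125 and 103 FPKM in the cKO libraries, against 119.9, 83.1 and 118 FPKM in the WT libraries. By the length of the principal coding transcript, chosen after seeing the data, the means over the 6 libraries were 108 for Eno1 and 193 for Pkm, so Pkm then ranked first. WT 2 was lowest and cKO 2 highest, and the groups overlapped. The fold change was 0.06 (SE 0.164; limma adjusted p = 0.948). The neuronal enolase Eno2 averaged 1.31 ± 0.232 FPKM in cKO and 1.12 ± 0.257 FPKM in WT (SD, n = 3 each).

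Pgk1, the phosphoglycerate kinase that makes the first ATP of the pathway, had 55.6, 50.4 and 50.6 FPKM in the cKO libraries, against 55.7, 56.9 and 55.8 FPKM in the WT libraries. The highest cKO and the lowest WT library were nearly equal, and no cKO library reached the WT range. Its mean was 52.2 ± 2.96 FPKM in cKO and 56.1 ± 0.669 FPKM in WT (SD, n = 3 each). The fold change was -0.10 (SE 0.0805), with a limma adjusted p of 0.844. Pgam1, the mutase of the next step, averaged 66.1 ± 4.39 FPKM in cKO and 63.6 ± 5.49 FPKM in WT (SD, n = 3 each), and Pkm, the pyruvate kinase gene, averaged 60.8 ± 4.35 FPKM in cKO and 61.3 ± 3.42 FPKM in WT (SD, n = 3 each).

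Gapdh, the dehydrogenase at the entry to lower glycolysis and a common reference gene, was listed at low levels, with 2.28, 2.22 and 1.35 FPKM in the cKO libraries, against 1.37, 1.17 and 1.25 FPKM in the WT libraries. Libraries cKO 1 and cKO 2 were higher than the rest, and cKO 3 lay within the WT range. The fold change of 0.37 (SE 0.172; limma adjusted p = 0.777) was the highest of the 33. It rested on 75, 74 and 43 reads in the cKO libraries, against 41, 37 and 40 reads in the WT libraries. With so few reads the exact Poisson 95% interval of the cKO 3 count was 31.1 to 57.9 reads and that of WT 1 was 29.4 to 55.6 reads, counting error only. The intervals of cKO 1 and cKO 2, 59.0 to 94.0 and 58.1 to 92.9 reads, lay above those of all WT libraries. These reads are not scaled for library depth.

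Most of the reads listed for the Gapdh family lay on other rows of the table. The table held 260 rows annotated with the same protein as Gapdh, of which 130 had reads, and they took 95.8% of the family's reads over the 6 libraries. The copies had 728, 2259 and 595 reads in the cKO libraries, against 730.0, 2080.0 and 726 reads in the WT libraries. Replicate 2 of both groups stood apart from the other libraries, and there a single copy, the pseudogene Gm13394 (GRCm39, chr2:28823441-28824639, minus strand), held most of the reads. Gm13394 had 0.662, 70.5 and 0.50 FPKM in the cKO libraries, against 0.823, 66.6 and 0.903 FPKM in the WT libraries.

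With the reads of its copies added, an alternative chosen after seeing the data, Gapdh had 24.5, 69.9 and 20.03 FPKM in the cKO libraries, against 25.8, 67.1 and 23.9 FPKM in the WT libraries. The fold change was then -0.09 with an SE of 0.548, so the sign of the Gapdh difference depended on whether the reads of copies were counted. How the counting split reads between near-identical rows, or whether it left some of them out, was not tested. The Gapdh value is uncertain with or without the copies.

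Copies of other genes were also high in some libraries and not in others. For Eno1, 8.84% of the family's reads lay on copies. Eno1b had 15.2, 2.13 and 2.67 FPKM in the cKO libraries, against 3.10, 11.9 and 2.68 FPKM in the WT libraries. The pseudogene Gm4735 (GRCm39, chr2:80667439-80669117, plus strand) had 14.6, 1.33 and 1.23 FPKM in the cKO libraries, against 1.87, 12.8 and 1.64 FPKM in the WT libraries. Both copies were high in cKO 1 and WT 2. Eno1 itself was lowest in WT 2, but in cKO 1 it had 105 FPKM, against 103 FPKM in cKO 3, where the copies were low. WT 2 was also the lowest library for Aldoa, Tpi1, Pgam1, Ldha and Ldhb, among others. Whether the copies took reads from Eno1 was not tested. With copies added, Eno1 had 131, 128 and 106 FPKM in the cKO libraries, against 124, 105 and 121 FPKM in the WT libraries, and the SE of its fold change was 0.121 in place of 0.164.

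The Ldhb pseudogene Ldhb-ps (GRCm39, chr19:21914647-21915931, plus strand) had 1.65, 36.7 and 0.933 FPKM in the cKO libraries, against 0.768, 0.685 and 0.927 FPKM in the WT libraries, and thus stood high in cKO 2. Ldhb-ps took 0.882% of the Ldhb family's reads over all libraries. In all, 15 of the 34 genes had copies in the table and 13 had copies with reads. Beside Gapdh and Eno1, copies took at most 2.95% of the family's listed reads, for Pgam1. Whether the counting left out reads that match a gene and its copies is not known.

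**Figure D4:**
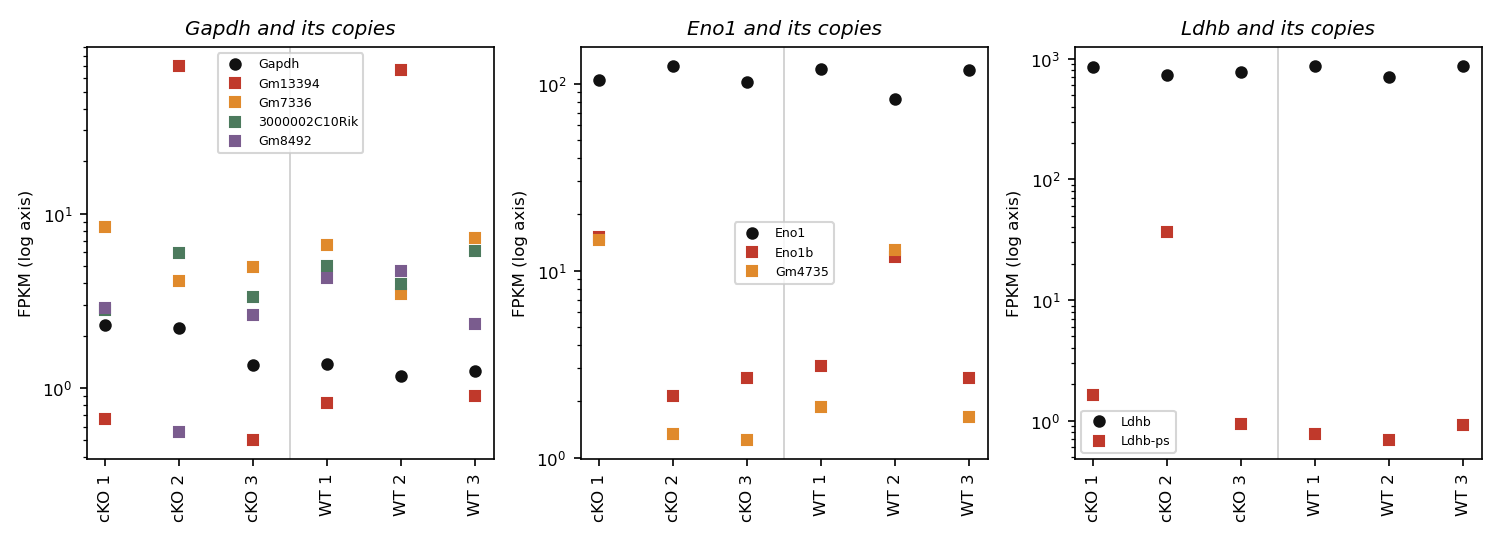
FPKM (log axis) of Gapdh, Eno1 and Ldhb (black circles) and of their copies (coloured squares) in each cKO library, left of the grey line, and each WT library. Gm13394 is high in cKO 2 and WT 2, Eno1b and Gm4735 in cKO 1 and WT 2, and Ldhb-ps in cKO 2.

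Of the lactate dehydrogenase reads listed, most were on Ldhb in both groups. Ldhb, which encodes the subunit that favours the conversion of lactate to pyruvate, had 849, 727 and 769 FPKM in the cKO libraries, against 873, 710.0 and 863 FPKM in the WT libraries. It was the most abundant of the 34 genes and ranked 24 among all 47205 rows by mean FPKM. The groups overlapped, with replicate 2 of each lowest, and the fold change was -0.06 (SE 0.141; limma adjusted p = 0.943). Ldha, which encodes the subunit that favours lactate production, had 25.1, 25.5 and 21.4 FPKM in the cKO libraries, against 23.9, 18.9 and 25.8 FPKM in the WT libraries. The groups overlapped, WT 2 was lowest, and the fold change was 0.08 (SE 0.135; limma adjusted p = 0.918).

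The ratio of Ldhb to Ldha was 28.5 to 37.6 in FPKM over the 6 libraries. Its size depends on the gene length used, which was 5342 bases for Ldha in the deposited table, where the principal coding transcript in GENCODE M21 has 1766 bases. The ratio was 6.96 to 9.19 in recovered reads and 9.43 to 12.4 in reads per base of the principal transcript. The table's length was also 3.16 times that of the longest coding transcript for Pkm, 2.84 for Pfkp, 2.21 for Ankrd37, 1.73 for Mpc1 and 1.56 for Aldoa, so the order of levels between genes depends on the length used. For Aldoa and Vegfa the principal transcript is short, at 741 and 654 bases, where the longest coding transcripts have 1549 and 3451 bases. The table's length was 3.27 times the principal transcript for Aldoa and 6.38 times for Vegfa, and both had the highest level of their group by either length. Ldhb was above Ldha in all 6 libraries by each of these measures, which all rest on the same listed reads. Ldha had 21 copies in the deposited table, 8 of them with reads, and Ldhb had 1. Whether Ldha lost reads to its copies was not tested, so the size of the ratio is uncertain.

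Shares within isozyme and partner sets were compared for 10 sets, with exact two-sided permutation tests over libraries, for which 0.1 is the smallest p that 3 against 3 allow. The share of Ldhb in its pair averaged 97.0% ± 0.354 in cKO and 97.3% ± 0.166 in WT (SD, n = 3 each), with an exact p of 0.3 (0.75 after adjustment over the 10 sets). Pfkm averaged 50.9% ± 2.65 in cKO and 49.9% ± 2.72 in WT (SD, n = 3 each) of the phosphofructokinase sum (exact p = 0.6), and Eno1 98.8% ± 0.140 in cKO and 98.9% ± 0.489 in WT (SD, n = 3 each) of the enolase sum (exact p = 0.9). The share of Slc16a1 ranged from 68.6% to 81.1% in cKO and from 64.5% to 87.8% in WT, the widest range of the shares given here.

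The share of Hif1a among Hif1a and Epas1 was 67.9%, 69.2% and 70.7% in the cKO libraries, against 64.3%, 65.0% and 67.7% in the WT libraries. The groups did not overlap, by a narrow gap between cKO 1 and WT 3. The difference was 3.59 percentage points (exact permutation p = 0.1, 0.667 after adjustment over 10 sets). The share of Mpc2 averaged 88.0% ± 1.19 in cKO and 84.9% ± 1.95 in WT (SD, n = 3 each), a difference of 3.10 points (exact p = 0.2), and that of Egln1 averaged 84.8% ± 2.02 in cKO and 87.4% ± 1.04 in WT (SD, n = 3 each), a difference of -2.55 points (exact p = 0.2).

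**Figure D5:**
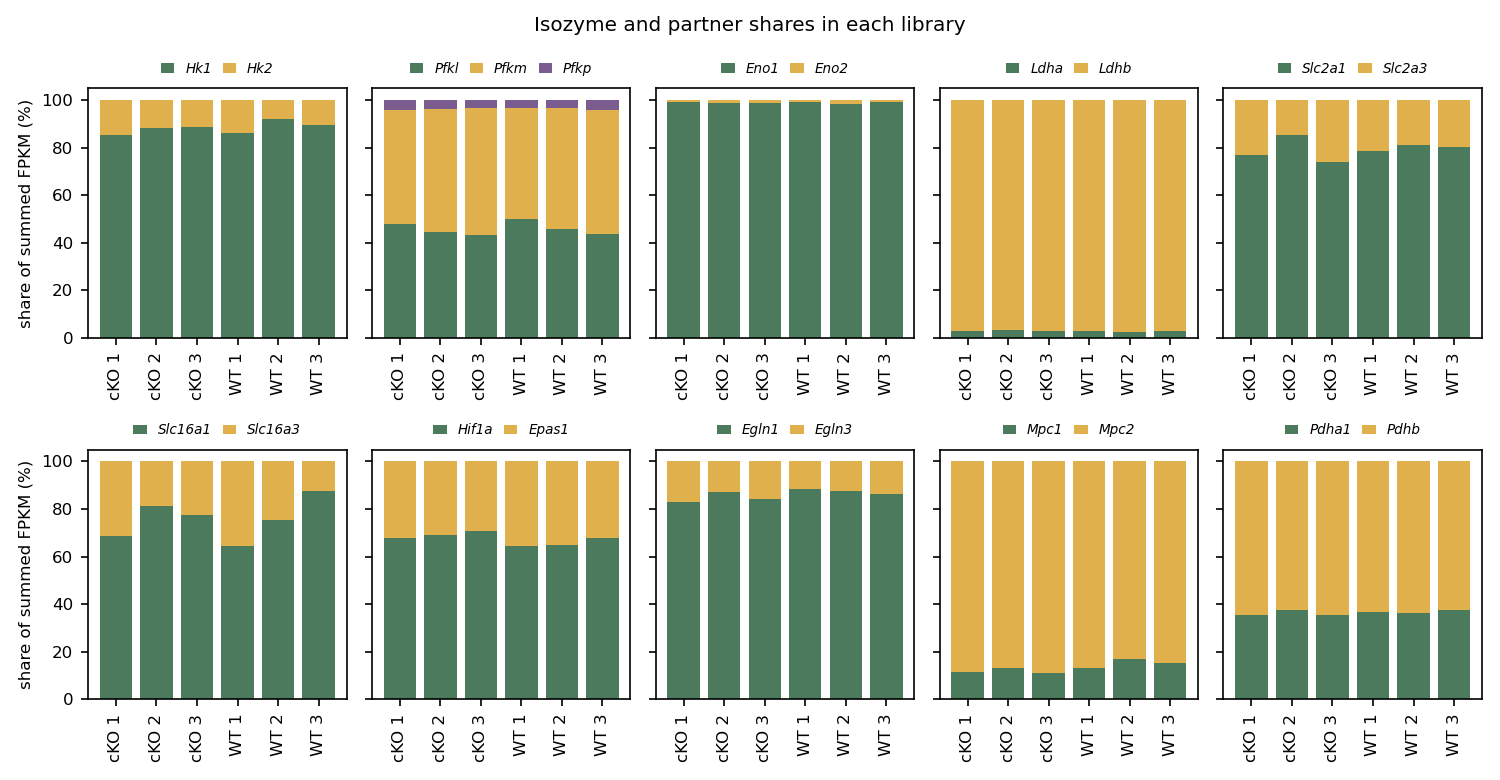
Share of each gene in the summed FPKM of its set (%), stacked bars from 0 to 100, for 3 cKO libraries and, to their right, 3 WT libraries. Ldhb and Eno1 fill almost the whole of their bars in every library, and Pfkl and Pfkm have near-equal shares.

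Pyruvate enters the mitochondrion through a carrier built of Mpc1 and Mpc2. Mpc2 averaged 35.2 ± 6.74 FPKM in cKO and 31.3 ± 4.04 FPKM in WT (SD, n = 3 each), with cKO 2 the highest library at 42.9 FPKM and WT 2 the lowest at 26.8 FPKM. Mpc1 averaged 4.85 ± 1.50 FPKM in cKO and 5.52 ± 0.666 FPKM in WT (SD, n = 3 each), with a fold change of -0.18 (SE 0.187; limma adjusted p = 0.872), which was -0.38 without cKO 2 and -0.06 without cKO 3.

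Inside, the pyruvate dehydrogenase complex makes acetyl-CoA. Pdhb, the beta subunit of its first enzyme, was the most abundant of the group, with 41.8, 44.1 and 41.8 FPKM in the cKO libraries, against 41.7, 42.1 and 47.0 FPKM in the WT libraries. The groups overlapped, though not with libraries scaled to equal totals, and the fold change was -0.03 (SE 0.0847, limma adjusted p = 0.948). The alpha subunit Pdha1 averaged 24.2 ± 2.15 FPKM in cKO and 25.5 ± 2.35 FPKM in WT (SD, n = 3 each), and Dlat, the acetyltransferase of the complex, averaged 16.3 ± 1.86 FPKM in cKO and 17.2 ± 1.25 FPKM in WT (SD, n = 3 each). Pdk1, the kinase that inhibits the complex, averaged 8.22 ± 1.61 FPKM in cKO and 7.80 ± 0.859 FPKM in WT (SD, n = 3 each), with a fold change of 0.06 (SE 0.150). Of the 6 genes of pyruvate use, 2 had positive and 4 negative fold changes, with a median of -0.05. On the log2(FPKM + 1) scale none had an interval beyond 1.5-fold except Mpc1.

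Among the genes of oxygen sensing, 3 of 4 had positive fold changes, but Hif1a was at -0.03 and Egln1 at -0.04 with libraries scaled to equal totals, and at -0.02 and -0.01 after quantile normalization. Hif1a, the oxygen-regulated subunit of the hypoxia-inducible factor, was the most abundant, with 55.4, 47.0 and 61.9 FPKM in the cKO libraries, against 49.6, 54.9 and 55.8 FPKM in the WT libraries. Library cKO 3 was highest and cKO 2 lowest, so that the WT libraries lay within the cKO range. Log2 levels differed by 0.03 (SE 0.119; limma adjusted p = 0.970).

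Epas1 encodes the related subunit HIF-2alpha, which is prominent in endothelial cells. It had 26.2, 20.9 and 25.7 FPKM in the cKO libraries, against 27.5, 29.6 and 26.6 FPKM in the WT libraries. All cKO libraries lay below all WT libraries, with cKO 2 the lowest and cKO 1 just under WT 3. The mean was 24.3 ± 2.90 FPKM in cKO and 27.9 ± 1.54 FPKM in WT (SD, n = 3 each). Epas1 had a fold change of -0.20 (SE 0.109), with a limma adjusted p of 0.801 and an unadjusted limma p of 0.111 from the fit across all genes. The summed level of the 8 endothelial markers was higher in each cKO library than in each WT library. The part of endothelial cells in the Epas1 values was not tested.

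Egln3, a prolyl hydroxylase that marks the factors for degradation and is itself a target of them, had 5.30, 4.59 and 4.91 FPKM in the cKO libraries, against 3.55, 3.92 and 4.33 FPKM in the WT libraries. All cKO libraries lay above all WT libraries. The mean was 4.93 ± 0.356 FPKM in cKO and 3.93 ± 0.390 FPKM in WT (SD, n = 3 each), 25.4% higher in cKO, on 188 to 308 reads a library. The log2 fold change of 0.27 (SE 0.110) had a limma p of 0.0453 before adjustment, the only 1 of the 33 under 0.05, and of 0.773 after it. Egln1, the main prolyl hydroxylase in most cells, averaged 27.7 ± 2.65 FPKM in cKO and 27.2 ± 0.232 FPKM in WT (SD, n = 3 each). Its WT libraries lay within 26.9 to 27.4 FPKM, and its cKO libraries spread from 26.0 to 30.8 FPKM.

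The 3 targets of the hypoxia response that were tested had fold changes with a median of 0.03, which was -0.03 with libraries scaled to equal totals. Vegfa, the growth factor for blood vessels, was the most abundant, with 31.2, 37.3 and 22.9 FPKM in the cKO libraries, against 30.2, 29.7 and 27.9 FPKM in the WT libraries. Library cKO 2 was highest and cKO 3 lowest, and the WT libraries lay between them. Log2 levels differed by 0.03 (SE 0.168; limma adjusted p = 0.978), and by -0.03 with libraries scaled to equal totals.

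Bnip3, which marks mitochondria for autophagy, averaged 12.9 ± 1.16 FPKM in cKO and 12.9 ± 0.209 FPKM in WT (SD, n = 3 each), and its fold change of -0.00 (SE 0.0915) was 0.00 with the libraries set to equal medians. Ndrg1, a gene induced by stress and differentiation, had 13.9, 10.5 and 12.7 FPKM in the cKO libraries, against 13.3, 10.4 and 8.60 FPKM in the WT libraries. WT 3 was lowest, the groups overlapped, and the fold change was 0.19 (SE 0.169; limma adjusted p = 0.859). It was 0.05 without WT 3 and 0.34 without WT 1. Ankrd37, an ankyrin-repeat gene induced by hypoxia, had 0.543, 0.662 and 0.373 FPKM in the cKO libraries, against 1.11, 0.807 and 0.582 FPKM in the WT libraries. It missed the filter and was not tested, the groups overlapped, and it had 14 to 39 reads a library. Ankrd37 and Ufsp2 overlap in their spans in the table, and it is not known whether they share reads.

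Genes next to these in metabolism were read in the same fit, and 0 were called in each list. Of 32 paralogs and regulators, 21 were tested, 4 with positive and 17 with negative fold changes (median -0.07, with 2 and 19 at equal totals). An unadjusted limma p under 0.05 was found for 2 of the 21, against 6.34% of all genes tested. Adpgk, a glucokinase that uses ADP, had 19.2, 19.7 and 17.4 FPKM in the cKO libraries, against 22.0, 23.0 and 23.7 FPKM in the WT libraries, and log2 levels differed by -0.28 (SE 0.0856; limma adjusted p = 0.743). Gapdhs, known as the dehydrogenase of sperm, had 2.67, 3.14 and 2.82 FPKM in the cKO libraries, against 3.65, 4.56 and 3.91 FPKM in the WT libraries, and log2 levels differed by -0.38 (SE 0.119; limma adjusted p = 0.743). The phosphatases Pdp1 and Pdp2, which reactivate pyruvate dehydrogenase, averaged 11.9 and 1.60 FPKM in cKO and 13.9 and 2.09 FPKM in WT. The groups did not overlap for any of these 4 genes, which were picked as those with the smallest p of the list. Of the 21 tested, 4 were lower in cKO without overlap and 0 higher, against 5.89% and 6.37% of all genes tested.

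Of 8 pentose phosphate genes, 7 had positive fold changes (median 0.08), against 5 with libraries scaled to equal totals, and the groups overlapped for all 8. The smallest unadjusted p was that of Pgls, the lactonase of the pathway, which averaged 64.0 FPKM in cKO and 55.3 FPKM in WT (limma adjusted p = 0.829). Of 16 citric acid cycle genes, 10 had positive and 6 negative fold changes (median 0.04), against 7 and 9 with libraries scaled to equal totals and 8 each after quantile normalization. Of 7 gluconeogenesis genes, 5 were tested, 3 with positive and 2 with negative fold changes (median 0.05), against 2 and 3 at equal totals.

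Of 20 other hypoxia genes, 19 were tested, 11 with positive and 8 with negative fold changes (median 0.03), against 8 and 11 at equal totals. Hmox1, the haem oxygenase that is also induced by haem and oxidative stress and is strong in macrophages, had 29.1, 24.0 and 25.04 FPKM in the cKO libraries, against 19.3, 11.7 and 15.5 FPKM in the WT libraries. The groups did not overlap, and the log2 fold change was 0.74 (SE 0.176), with a limma p of 0.00407 before adjustment and 0.713 after it. The leukocyte markers, as given above, were also higher in each cKO library than in any WT library, and their part in the Hmox1 values was not tested. Adm, a vasodilator peptide, had 8.08, 10.3 and 8.21 FPKM in the cKO libraries, against 5.62, 5.09 and 7.65 FPKM in the WT libraries, and log2 levels differed by 0.48 (SE 0.161; limma adjusted p = 0.760).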

How the data were processed

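Gene expression was measured by RNA sequencing in 6 libraries of mouse ovary at 9 dpp, 3 cKO and 3 WT, grouped by their labels. The authors deposited a single table of FPKM values for 47205 rows with positions and gene lengths. The submitters' processing notes name HISAT2 2.0.5 and the builds mm10 and GRCm39, with no role for any of them; the table's chromosome accessions are those of GRCm39. The sources used here do not give the annotation release, read counter or strandedness.

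FPKM times gene length gave whole reads, within 0.01, for 100% of values, with 16.8 to 18.7 M reads a library. A read in a gene of 1 kb is worth 0.052 to 0.0581 FPKM. Intervals on reads cover counting error only. The deposited values had already been scaled between libraries, and no further scaling was applied.

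The 14714 genes that averaged 1 FPKM or more were compared with limma 3.58.1 (R 4.3.3) on log2(FPKM + 1), with a trend in the prior, two-sided, adjusted by Benjamini-Hochberg over all genes tested, threshold 0.05. Shares used exact permutation tests (scipy 1.17.1). The test was tried on simulated data. Copies are rows annotated with a gene's own protein. The genes and lists were chosen with earlier results of these data known. Genes were given in full where the unadjusted p was under 0.05, where groups did not overlap or where they were the most abundant of their role. Other genes were given in full because of their copies, isozymes or spread, chosen after their values were seen. Of each neighbouring list up to 4 genes with the smallest p could be named. Alternatives were pseudocounts of 0.1 and 0.5, other filters, scalings and priors, library weights, limma-voom on the recovered reads, a block on replicate number, a restriction to protein-coding genes, and omission of each library. Adding the reads of copies, and the lengths of the principal and longest coding transcripts, were chosen after seeing the data. A gene that this rule would name among the neighbouring lists is not reported here.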

Additional observations from a re-analysis of the deposited data

How the results depend on the processing

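None of the genes described passed the threshold under any of the 20 alternatives, and the smallest limma adjusted p in any was 0.286, with library weights. The count of all genes called higher in cKO, 1 as reported, was 0 at pseudocounts of 0.1 and 0.5, with no filter, with a filter at 5 FPKM, after quantile normalization, for protein-coding genes only and by limma-voom, and 3 with library weights. The count called lower, 2 as reported, was 0 with no filter and by limma-voom and 1 for protein-coding genes only. A replicate block gave 0 genes higher and 0 lower. Deviations of same-numbered libraries from their group means had correlations of 0.18, -0.080 and -0.057. The highest correlation, 0.23, was that of cKO 2 with WT 3. Among the 3 numbers replicate 1 alone correlated best with its own, so the numbers were not taken to pair the libraries. At equal totals the median of the genes described was -0.032, against -0.056 for all genes tested, and 2 of them (6.06%) did not overlap between the groups, against 12.8% of all. At equal medians 6 (18.2%) did not overlap, against 12.1% of all. Whichever library was left out, 0 to 1 genes were called higher and 0 to 1 lower. Of the genes described, 6 to 12 (18.2% to 36.4%) were then without overlap, and of all genes tested 17.1% to 25.8%; the 12 were those without cKO 3, where the share of all genes was also highest.

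Of the 33 genes, 16 kept their sign in every alternative and 17 did not. None of these signs belonged to a called change, and the cause was not tested. At equal totals Slc16a1 was -0.019, Pgam1 -0.0069, Eno1 -0.00023, Hif1a -0.034, Egln1 -0.037 and Vegfa -0.032. At equal medians Bnip3 was 0.0035. After quantile normalization Pgam1 was -0.011, Eno1 -0.0080, Hif1a -0.022 and Egln1 -0.012. With library weights Hk1 was 0.061, Pfkp 0.055, Pkm 0.047, Ldhb 0.015 and Egln1 -0.033. With the reads of copies added Gapdh was -0.086. By principal transcript length the Slc16a1 share differed by 0.0802 points.

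Leaving out each library in turn gave log2 fold changes of -0.27 to 0.47 for Slc16a3, -0.070 to 0.043 for Bnip3, -0.11 to 0.16 for Eno1, -0.070 to 0.030 for Pkm, -0.049 to 0.068 for Egln1, -0.12 to 0.22 for Vegfa, -0.079 to 0.086 for Hk1, -0.15 to 0.041 for Pfkp, -0.067 to 0.19 for Pdk1, -0.062 to 0.13 for Hif1a, -0.023 to 0.14 for Slc16a1, -0.016 to 0.11 for Pgam1, -0.051 to 0.17 for Ldha, -0.17 to 0.033 for Tpi1 and -0.063 to 0.021 for Pdhb. A further 14 kept their sign but moved by over 1.5 times: 0.034 to 0.49 for Slc2a1, 0.14 to 0.30 for Slc2a3, 0.031 to 0.296 for Hk2, -0.34 to -0.083 for Pfkl, -0.204 to -0.0803 for Pfkm, 0.071 to 0.19 for Aldoa, 0.044 to 0.21 for Eno2, -0.15 to -0.0050 for Ldhb, -0.38 to -0.064 for Mpc1, 0.0044 to 0.23 for Mpc2, -0.14 to -0.00091 for Pdha1, -0.16 to -0.026 for Dlat, -0.26 to -0.100 for Epas1 and 0.051 to 0.34 for Ndrg1. Gapdh, Gpi1, Pgk1 and Egln3 moved less. Differences in share, in points, ranged from -0.518 to 2.47 for Pfkm, -0.345 to 0.107 for Eno1, -4.49 to 1.34 for Slc2a1 and -5.69 to 5.97 for Slc16a1.

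Depth limits Gapdh, Ankrd37 and Eno2, with 14 to 99 reads a library. With 3 libraries a group, a p that misses the threshold does not show equal levels.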

Other observations

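In 9 of the 33 genes tested (27.3%), namely Slc2a3, Slc16a3, Hk2, Gpi1, Pfkl, Gapdh, Pkm, Ldhb and Ndrg1, the library numbered 1 was the highest in both the cKO and the WT group. The same held for 1768 of all 14714 genes tested (12.0%). The count was made after the values were seen, and the numbers are not known to pair the libraries.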
